A study of Mus musculus with 12 samples.

Results

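The ribosome biogenesis and RNA polymerase I genes described here are the 48 of 55487 gene models whose symbols start with Utp, Nop, Rrp or Nol and a digit, are one of Polr1a to Polr1e, or are Ncl, Npm1, Fbl, Dkc1 or Ubtf. Their RNA was measured by RNA-seq in bone-marrow-derived macrophages (BMDMs) from mice aged 8 to 12 weeks, grown in medium conditioned by L929 cells. WT cells came from C57BL/6 mice, and RasGEF1b-cKO cells (KO) came from Rasgef1b-fl/fl;CMVcre mice kept on that background. Per the study's methods, a university animal facility provided the WT mice, whereas the KO line was generated at another institution. The WT mice are not described as littermates, so that differences of genotype and of colony cannot be told apart. In the KO mice, Cre under a CMV promoter that is active in all tissues had removed exons 7 and 8 of *Rasgef1b* throughout the body, so that the deletion is not limited to macrophages. Cells of each genotype were left untreated or were treated with LPS, the outer membrane component of Gram-negative bacteria sensed by Toll-like receptor 4, at 100 ng/ml for 4 h. This gave 4 groups of 3 biological replicates and 12 libraries in all, and whether a replicate pooled several mice is not given in the sources used here.

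Ribosomes are built in the nucleolus. RNA polymerase I, helped by the upstream binding factor UBF, transcribes a long precursor RNA, which small nucleolar ribonucleoproteins (snoRNPs) methylate and pseudouridylate at chosen bases. A large assembly called the small subunit processome folds and cleaves the part of the precursor that becomes the small ribosomal subunit, whereas other nucleolar proteins prepare the large subunit. Ribosome production is known to be highest in growing cells, and macrophages stimulated through Toll-like receptors slow their growth while they make immune proteins. Most members encode parts of these machines, and none of them measures the amount of ribosomal RNA made, since the libraries were prepared from poly(A) RNA.

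The 12 libraries held 19316691 to 24977356 reads in genes. *Rasgef1b* itself had normalised counts (reads divided by one size factor per library) of 2001 to 2171 in untreated WT and 545 to 695 in untreated KO macrophages, and of 11844 to 12554 and 3618 to 4192 after LPS. Its difference between KO and WT was -1.77 ± 0.09 on the log2 scale in untreated cells (SE; limma adjusted p = 1.29e-04) and -1.65 ± 0.07 after LPS (limma adjusted p = 4.20e-06), where the counts cover all exons of the gene, those outside the deletion included. All 8 macrophage markers checked were abundant in every library, with *Adgre1*, which encodes F4/80, at 24545 to 49972 normalised counts. The 6 T cell markers summed to 168 to 245 normalised counts in untreated WT, 151 to 175 in LPS-treated WT, 106 to 142 in untreated KO and 83.5 to 99.4 in LPS-treated KO libraries, nearly all from *Cd4*, while *Cd3e* stayed at or below 1.71 and *Cd3d* at 0. *Cd4* was lower in LPS-treated KO than WT cells by limma, with a log2 difference of -0.78. The 6 neutrophil markers summed to 156 to 351 in untreated and 235 to 786 in LPS-treated libraries, and the part of these cells in the results on the members was not tested. A ribosomal RNA gene model took 5.06% of the reads in replicate 2 of the untreated KO cells and at most 0.0874% in each other library, and that model is not a member. In bulk RNA, fewer cells of a type and less RNA per cell cannot be told apart.

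The members together took 30549 to 66439 reads per library. This was 0.243% to 0.266% of the reads of untreated libraries and 0.150% to 0.171% of those of LPS-treated libraries, and these ranges did not overlap. After division by the size factors of the authors the picture differed, since the summed normalised count of the members was 42269 to 44434 in untreated and 42496 to 44555 in LPS-treated libraries. On this scale the sum was level while single genes moved in opposite directions. *Ncl* and *Npm1*, the most abundant members by normalised count, made up 31.4% to 33.0% of it in every library. Per kilobase of exon in untreated WT cells, *Npm1* was the highest member at 2384 normalised counts, followed by *Rrp1* at 974, *Ncl* at 770.0 and *Utp3* at 659.6, and *Polr1e* was the lowest of the tested members at 29.9.

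In WT macrophages, LPS lowered more of the members than it raised. Of the 48, 45 had a mean normalised count of at least 10 and were tested, and 21 of them fell and 9 rose at an adjusted p under 0.05 (limma, Benjamini-Hochberg over all 12656 genes tested). Of all genes tested, 73.2% passed, and by direction 36.6% fell and 36.7% rose. With a 2-fold change required as well, 7 members fell (*Utp14b*, *Rrp1b*, *Nol4l*, *Polr1b*, *Nol8*, *Polr1a* and *Nop56*) and only *Nol10* rose, against 16.9% and 17.1% of all genes (33.9% in either direction). Falls of 2-fold were thus about as frequent among the members as among all genes, while rises were rarer. Leaving out replicate 3 of the LPS-treated WT cells reduced the 7 to 4. The median log2 fold change was -0.17 for the members and -0.02 for all genes tested, and the members spread from -3.52 to 1.505. On this scale 30 of the 45 lay below the median of all genes. In 21 members all 3 LPS-treated libraries lay below the untreated ones and in 9 all lay above, whereas 38.6% and 38.3% of all genes were separated in these ways. The split moved with the scaling. With library totals 41 members fell and 3 rose, and with upper quartile scaling 13 fell and 21 rose, while the median of all genes itself shifted by -0.72 and 0.30 on the log2 scale.

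**Figure D1:**
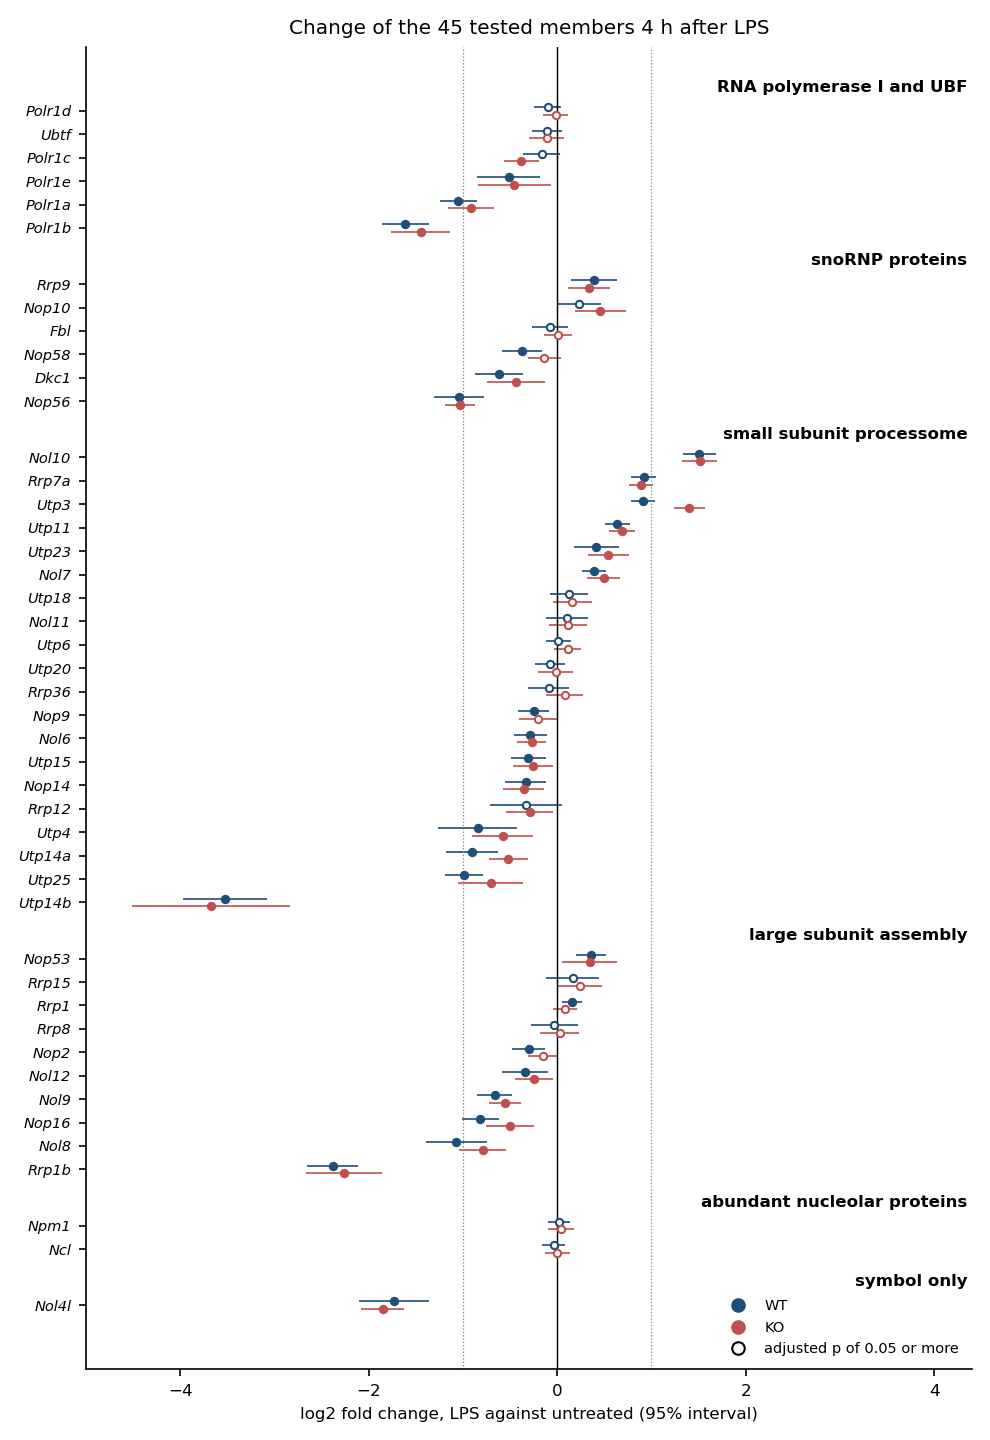
Log2 fold change of normalised count, LPS against untreated (x axis, with 95% intervals of the limma fit), for each of the 45 tested members grouped by role, in WT (blue) and KO (red) macrophages. Filled points have an adjusted p under 0.05, dotted lines mark 2-fold changes, and *Utp14b* at -3.52 and -3.67 and *Nol10* at 1.505 and 1.51 are the extremes.

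Among the subunits of RNA polymerase I, LPS lowered both subunits of the catalytic core and *Polr1e* in WT cells, and *Polr1c*, *Polr1d* and *Ubtf* did not pass the test. *Polr1a*, at chr6:71909053-71984935 of GRCm38, encodes the largest subunit and was measured at 799.9, 733 and 718 normalised counts in the untreated and 386, 377 and 327 in the LPS-treated WT libraries. All LPS-treated values lay below all untreated ones, and the log2 fold change was -1.05 ± 0.09 (SE; limma adjusted p = 3.65e-06). *Polr1b*, at chr2:129100995-129126594, encodes the second largest subunit, which forms the active site together with the first. It went from 307, 262 and 277 to 95.7, 87.3 and 91.8 normalised counts in WT cells, again with no overlap, a change of -1.61 ± 0.11 (SE; limma adjusted p = 1.002e-06). *Polr1e*, which encodes a subunit of the dissociable initiation and elongation module, fell by less, from 116 ± 13.6 (mean and SD, n = 3) to 80.9 ± 7.72, a change of -0.52 ± 0.15 (SE; limma adjusted p = 0.01005) that no longer passed with upper quartile scaling, with quantile normalization or without replicate 2 of the untreated WT cells (limma adjusted p = 0.0532). The products of *Polr1c* and *Polr1d* also belong to RNA polymerase III. *Polr1d* was measured at 1136 ± 47.6 and 1060.0 ± 53.3 normalised counts, with a log2 fold change of -0.10 ± 0.06 (SE; limma adjusted p = 0.183), and *Polr1c* at 416 ± 28.4 and 370.0 ± 19.5, with -0.17 ± 0.09 (SE; limma adjusted p = 0.106). *Ubtf*, which encodes UBF, had 1889 ± 49.6 normalised counts untreated and 1759 ± 159.9 with LPS, and its log2 fold change was -0.11 ± 0.07 (SE; limma adjusted p = 0.201). In all, 3 of these 6 genes fell in WT cells (36.6% of all genes did), none rose, and the differences between subunits were not tested.

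In KO macrophages the core subunits also fell. *Polr1a* went from 635, 652 and 665 to 369, 379 and 293 normalised counts, a log2 fold change of -0.91 ± 0.11 (SE; limma adjusted p = 6.08e-05), and *Polr1b* from 262, 277 and 281 to 89.5, 120.3 and 91.2, a change of -1.45 ± 0.14 (SE; limma adjusted p = 1.59e-05). Neither gene had an LPS-treated library within its untreated range. *Polr1c* passed the test in KO cells, where it went from 443 ± 0.83 to 341 ± 24.4, a change of -0.38 ± 0.08 (SE; limma adjusted p = 0.00254), and *Polr1e* changed by -0.46 ± 0.17 (SE; limma adjusted p = 0.0368). The adjusted p of *Polr1e* was 0.0607 to 0.131 when replicate 2 or 3 of the untreated or replicate 1 or 3 of the LPS-treated KO cells was left out, and it also missed the threshold with DESeq2, without a filter, and with quantile and upper quartile scaling. *Polr1c* in KO cells missed it with upper quartile scaling. Of the 6 genes, 4 fell in KO cells, where 35.7% of all genes did.

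**Figure D2:**
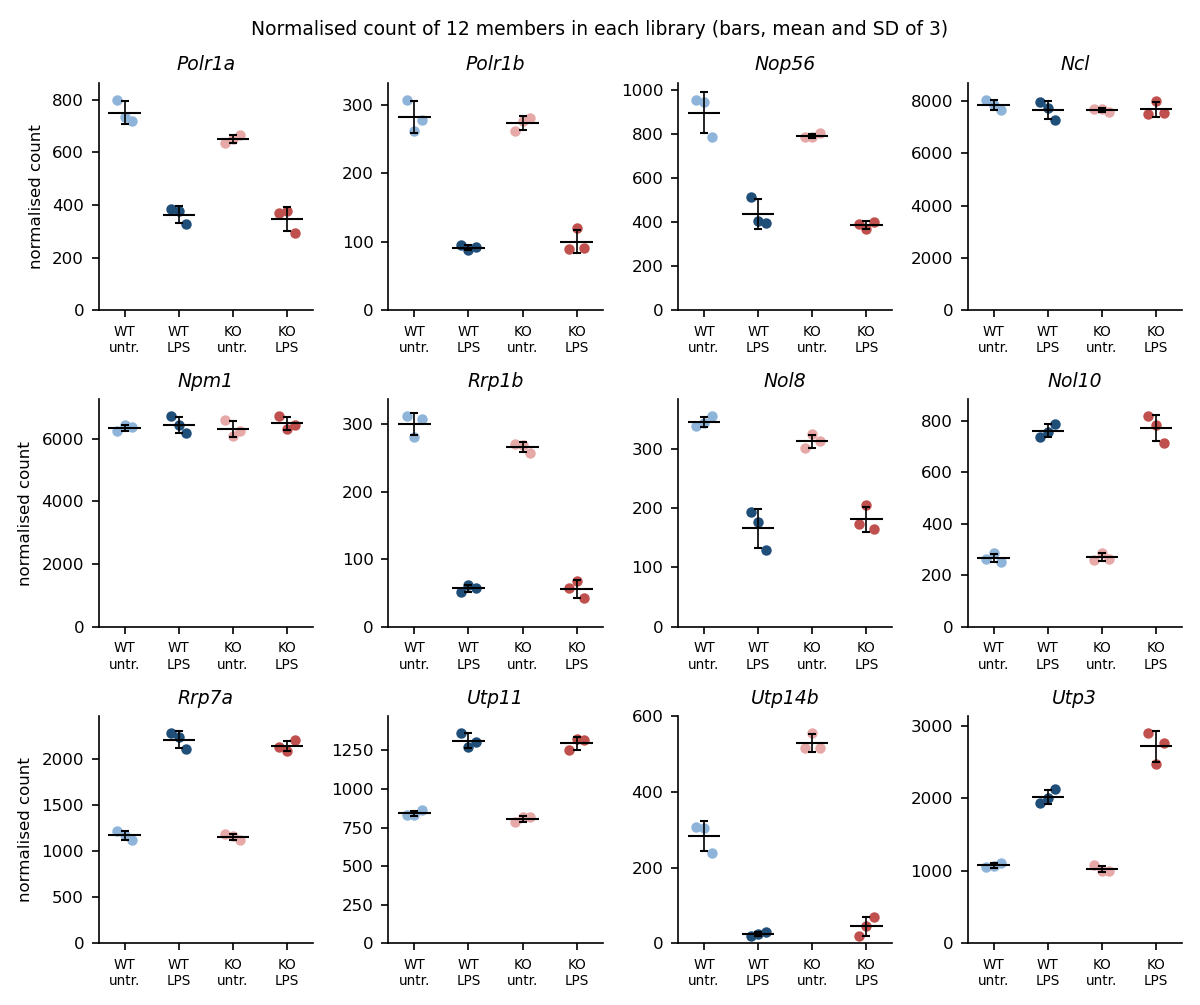
Normalised count (y axis, linear from 0) of 12 members in each of the 3 libraries of the 4 groups (points), with the group mean and SD (black bars). *Polr1a*, *Polr1b*, *Nop56*, *Rrp1b*, *Nol8* and *Utp14b* are lower in every LPS-treated library than in every untreated one of the same genotype, *Nol10*, *Rrp7a*, *Utp11* and *Utp3* are higher, and the ranges of *Ncl* and *Npm1* overlap.

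The proteins of snoRNPs, which guide chemical modification of ribosomal RNA, did not move as a block. *Nop56*, at chr2:130274430-130279313, encodes a core protein of the box C/D particles that methylate RNA, and was measured at 956, 948 and 789 normalised counts in untreated and 514, 404 and 395 in LPS-treated WT libraries. The groups did not overlap, and the log2 fold change was -1.04 ± 0.12 (SE; limma adjusted p = 3.25e-05). Its partner in the same particle, *Nop58*, changed by -0.37 ± 0.09 (SE; limma adjusted p = 0.0058) in WT cells, from 635 ± 39.8 to 492 ± 54. *Fbl* encodes fibrillarin, the methyltransferase of these particles, and had 931, 929 and 871 normalised counts untreated and 922, 910.2 and 765 with LPS. The ranges of *Fbl* overlapped, and its log2 fold change was -0.08 ± 0.08 (SE; limma adjusted p = 0.421). *Dkc1* encodes dyskerin, the pseudouridine synthase of the box H/ACA particles, and fell from 255 ± 20.5 to 165 ± 15.5, a change of -0.62 ± 0.11 (SE; limma adjusted p = 7.89e-04). *Nop10*, a small subunit of the same H/ACA particles, went from 428 ± 49.3 to 502 ± 48 in WT cells (0.23 ± 0.10, limma adjusted p = 0.0719) and from 376 ± 42.7 to 516 ± 63.9 in KO cells (0.45 ± 0.12, limma adjusted p = 0.00761). The rise of *Nop10* in KO cells turned to -0.23 with library totals. *Rrp9* encodes a protein of the U3 particle and rose by 0.39 ± 0.11 (SE; limma adjusted p = 0.00982) in WT cells, from 272 ± 35.4 to 356 ± 22.2, but was at -0.33 with library totals. Over the 6 genes, 3 fell (50%) and 1 rose (16.7%) in WT cells, against 36.6% and 36.7% of all genes. In KO cells 2 fell and 2 rose (33.3% each), against 35.7% and 36.3% of all genes. There *Nop56* changed by -1.03, *Dkc1* by -0.44 and *Nop58* by -0.14 ± 0.08 (SE; limma adjusted p = 0.131). *Nop58* in WT cells and *Dkc1* in KO cells did not pass with upper quartile scaling, nor did *Dkc1* in KO cells with quantile normalization.

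Neither of the most abundant members passed the test in any comparison. *Ncl*, which encodes nucleolin, was measured at 8039, 7856 and 7639 normalised counts in untreated WT, 7946, 7735 and 7278 in LPS-treated WT, 7688, 7699.8 and 7571 in untreated KO and 7500.4, 7988 and 7527 in LPS-treated KO libraries. *Npm1*, which encodes nucleophosmin, a chaperone of the granular part of the nucleolus, was measured at 6258, 6441 and 6363 in untreated WT and 6713, 6429 and 6178 in LPS-treated WT libraries. In KO cells *Npm1* had 6593, 6104 and 6245 normalised counts untreated and 6718, 6327 and 6437 with LPS. All groups overlapped for both genes. The log2 fold change with LPS in WT cells was -0.04 ± 0.05 (SE; limma adjusted p = 0.56) for *Ncl* and 0.02 ± 0.05 (SE; limma adjusted p = 0.757) for *Npm1*, and the 95% interval of the latter reached from -0.10 to 0.14. Under the other scalings these changes ranged from -0.97 to 0.26 for *Ncl* and from -0.86 to 0.32 for *Npm1*. *Npm1* has processed pseudogenes elsewhere in the genome, so that reads it shares with them may have been assigned otherwise.

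The small subunit processome, with 20 tested members, held the strongest rise, that of *Nol10*, and through *Utp14b* alone the strongest fall. Apart from *Utp14b*, its largest fall in WT cells was that of *Utp25* (-0.99), which was smaller than those of *Rrp1b* (-2.38) and *Polr1b* (-1.61). In WT cells 6 of them rose (30%), 8 fell (40%) and 6 did not pass, where 36.7% of all genes rose and 36.6% fell. *Nol10*, at chr12:17348458-17430095, encodes a protein of the processome, and had 263, 286 and 253 normalised counts in untreated and 737, 755 and 787 in LPS-treated WT libraries. Every LPS-treated library was above every untreated one, with a log2 fold change of 1.505 ± 0.08 (SE; limma adjusted p = 1.27e-07). *Rrp7a*, at chr15:83113433-83122801, went from 1219, 1172 and 1127 to 2286, 2239 and 2114, a change of 0.92 ± 0.06 (SE; limma adjusted p = 5.57e-07) without overlap. It shares 678 nt, or 12.5% of its exons, with *Serhl* on the opposite strand, which itself rose by 0.55, and the strand setting of the read counting is not given in the sources used here. *Utp3*, at chr5:88554462-88556090, encodes a processome subunit that also occurs under the name Sas10, and went from 1053, 1063 and 1108 to 1939, 1998 and 2123 normalised counts, a change of 0.91 ± 0.06 (SE; limma adjusted p = 5.66e-07). *Nol10*, *Rrp7a* and *Utp3* were higher with LPS under all scalings tried, with the smallest value for *Nol10* at 0.78, for *Rrp7a* at 0.19 and for *Utp3* at 0.18. The smaller rises of *Utp11* (0.64 ± 0.06, limma adjusted p = 6.77e-06) and *Utp23* (0.42 ± 0.11, limma adjusted p = 0.00557) turned to -0.09 and -0.31 with library totals. *Nol7* also rose, and it turned negative with library totals as well. It shares 453 nt, or 16.5% of its exons, with *Ranbp9* on the opposite strand, which itself changed by -0.72 in WT cells.

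Other processome members fell. *Utp25*, which encodes a further processome protein, went from 354, 362 and 327 to 182, 173 and 168 normalised counts, a change of -0.99 ± 0.09 (SE; limma adjusted p = 7.57e-06). *Utp14a*, which encodes the activator of the helicase that frees the U3 RNA, went from 601, 587 and 621 to 380.0, 330.2 and 266, a change of -0.90 ± 0.12 (SE; limma adjusted p = 1.10e-04). Both were lower in every LPS-treated library. *Utp4*, *Nop14*, *Utp15*, *Nol6* and *Nop9* fell as well, of which *Nol6* and *Nop9* were at 0.02 and 0.05 with upper quartile scaling, under which *Nop14* and *Utp15* did not pass either. The largest fall of any member was that of *Utp14b*, at chr1:78658038-78671512, a retrotransposed copy of *Utp14a* that lies within the fatty acid activating gene *Acsl3* on the same strand and is known for its part in male germ cells. It went from 307, 305 and 238 to 18.3, 24.6 and 29.2 normalised counts in WT cells, a log2 fold change of -3.52 ± 0.20 (SE; limma adjusted p = 2.37e-07). *Utp14b* shares 244 nt of exon with *Acsl3*, or 3.18% of its own exons, and *Acsl3* went from 1236, 1283 and 1153 to 187, 128 and 135 normalised counts, a change of -3.04 ± 0.14 (SE). Both genes fell, and the part of shared reads in this was not tested. Reads that match both *Utp14a* and *Utp14b* could also be split between these copies.

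Of 10 tested genes of large subunit assembly, 6 fell (60%), 2 rose (20%, *Nop53* and *Rrp1*) and 2 did not pass in WT cells, where 36.6% of all genes fell and 36.7% rose. *Rrp1b*, at chr17:32036100-32062865, encodes a nucleolar protein that binds protein phosphatase 1, and went from 311, 281 and 307 to 52.1, 61.4 and 57 normalised counts. The groups were far apart, with a log2 fold change of -2.38 ± 0.12 (SE; limma adjusted p = 1.11e-07). Its paralog *Rrp1*, named here after its values were seen, went the other way by 0.16 ± 0.05 (SE; limma adjusted p = 0.0149), which turned to -0.57 with library totals and to -0.58 with quantile normalization and had an adjusted p of 0.053 without replicate 2 of the untreated WT cells. *Nol8*, at chr13:49653078-49679016, went from 338, 343 and 354 to 193, 176 and 129, a change of -1.07 ± 0.14 (SE; limma adjusted p = 1.07e-04) without overlap. *Nop16* went from 369 ± 17.1 to 209 ± 8.27 (-0.81 ± 0.09, limma adjusted p = 2.03e-05). *Nol9*, which encodes a polynucleotide kinase that processes the spacer between large subunit RNAs, went from 547 ± 23.1 to 345 ± 22.4 (-0.66 ± 0.08, limma adjusted p = 5.27e-05). In KO cells *Rrp1b* was measured at 270.2, 269 and 258 untreated and 56.8, 68 and 42.2 with LPS, a change of -2.26 ± 0.17 (SE; limma adjusted p = 4.45e-06). There 5 of the 10 genes fell (50%) and 1 rose (10%), against 35.7% and 36.3% of all genes. *Nol12*, among these 5, did not pass in KO cells with DESeq2. The rises of *Nop53* turned to -0.37 (WT) and -0.34 (KO) with library totals and to -0.20 and -0.24 with quantile normalization.

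Some members share only their symbol with this process, and few reads came from several of them. *Nol4l*, which is not known as a ribosome assembly gene, went from 415, 389 and 424 to 92.9, 131 and 152 normalised counts in WT cells (-1.73 ± 0.17, limma adjusted p = 1.01e-05) and changed by -1.85 in KO cells. *Nol3*, which encodes an inhibitor of cell death, had 1 to 12 reads per library, and 48.2% of its exons overlap a gene on the opposite strand. *Nol4* had at most 2 reads and the pseudogene *Utp14b-ps1* 1 read in 1 of the 12 libraries, and these 3 were below the filter in every comparison. Without *Nol4l*, *Nol3*, *Nol4*, the pseudogene and *Utp14b*, 43 members remained, of which 19 fell (44.2%) and 9 rose (20.9%) in WT cells, against 36.6% and 36.7% of all genes. By 2-fold 5 of them fell and 1 rose, against 16.9% and 17.1% of all genes, and their median was -0.11.

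In KO macrophages LPS again lowered more members than it raised. Of the 45 members tested, 20 fell and 9 rose at an adjusted p under 0.05 (limma over 12732 genes), where 35.7% and 36.3% of all genes did (72.1% in either direction). With DESeq2 16 fell and 9 rose, against 33.9% and 35.9% of all genes. Over omissions of 1 library 16 to 20 fell, against 32% to 35.2% of all genes. *Nol12*, *Utp15* and *Rrp12* lost the call with DESeq2, without a filter and in most of these omissions. By 2-fold, *Utp14b*, *Rrp1b*, *Nol4l*, *Polr1b* and *Nop56* fell and *Nol10* and *Utp3* rose, against 16.6% and 17.3% of all genes. Both directions were rarer among the members than among all genes. All 3 LPS-treated libraries lay below the untreated ones for 22 members and above them for 10, against 38.1% and 38.4% of all genes. The median of the members was -0.14, and that of all genes -0.01, with 26 of the 45 members below the median of all genes and 19 above it. *Nol10* was measured at 259, 286 and 265 untreated and 816, 783 and 715 with LPS (1.51 ± 0.08, limma adjusted p = 5.17e-07) and *Rrp7a* at 1189, 1161 and 1118 and 2128, 2092 and 2205 (0.89 ± 0.06, limma adjusted p = 1.36e-06). Both were higher in every LPS-treated library. *Utp3* changed by 1.40 ± 0.07 (SE; limma adjusted p = 3.96e-07) and *Utp14b* by -3.67 ± 0.37 (SE; limma adjusted p = 2.33e-05) in KO cells, again without overlap. *Nop53* and *Rrp9*, which rose in both genotypes, did not pass in KO cells without replicate 3 of the untreated KO cells (limma adjusted p = 0.0917 and 0.0547), and *Nop53* had an adjusted p of 0.0862 to 0.121 without replicate 2 of the untreated or 1 or 3 of the LPS-treated KO cells as well. With library totals 38 fell and 3 rose, and with upper quartile scaling 10 fell and 21 rose. The KO and WT comparisons share no library, and 18 members fell in both genotypes, 8 rose in both, and none that passed in both moved in opposite directions. *Nop2*, *Rrp1*, *Nop58* and *Nop9* passed in WT cells alone and *Polr1c*, *Nop10* and *Rrp12* in KO cells alone, which by itself does not show a difference between genotypes. Across the 45 members the log2 fold changes of WT and KO cells correlated with r = 0.988, or 0.983 without *Utp14b*. This is a correlation across genes, which are not independent replicates. Its value over all genes, and the shares of all genes that fell or rose in both genotypes, are not given here.

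The other genes of the pathway moved in both directions as well. A list of 117 further genes of RNA polymerase I, snoRNPs, the processome, large subunit assembly and the exosome had 112 tested, of which 33 rose (29.5%) and 46 fell (41.1%) in WT cells, against 36.7% and 36.6% of all genes, with a median of -0.0005. By 2-fold 7 rose and 5 fell of the 112, against 17.1% and 16.9% of all genes. In KO cells 39 rose (34.8%) and 38 fell (33.9%), against 36.3% and 35.7% of all genes, and the counts of the single lists that follow can be read against the same shares. Within the polymerase I list of 14 tested genes, *Cd3eap*, which encodes a further polymerase I subunit, went from 298 ± 31.8 to 79.3 ± 19.2 normalised counts (-1.92 ± 0.18, limma adjusted p = 8.74e-06), next to the falls of *Polr1a* and *Polr1b*. *Tcof1*, the treacle protein, which binds UBF, rose from 1104 ± 162 to 2510.5 ± 241 (1.19 ± 0.11, limma adjusted p = 6.34e-06). Of 34 other processome genes 11 rose and 15 fell, and the strongest were rises, of *Noc4l* from 288 ± 35.4 to 1233 ± 169 (2.09 on the log2 scale), *Wdr43* (1.91) and *Rcl1* (1.76). Of 39 other large subunit genes 9 rose and 14 fell, and the strongest were falls, of *Gnl3*, which encodes nucleostemin, from 705 ± 40.5 to 215 ± 27.2 (-1.71), *Ppan* (-1.60) and *Wdr12* (-1.43). Of 11 other snoRNP genes 4 rose and 6 fell, led by the assembly factor *Shq1* at -0.91. Of 14 exosome and nuclease genes 6 rose and 6 fell, led by the exonuclease *Xrn2* at 1.325.

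Set beside other machines of RNA and protein synthesis, the members and the ribosomal proteins themselves had medians of opposite sign with the authors' size factors, whereas the member median was 0.13 in WT and 0.14 in KO cells with upper quartile scaling. Of 78 tested cytosolic ribosomal protein genes, a set taken by symbol after the values had been seen, 71 rose in WT and 70 in KO cells with medians of 0.31 and 0.39 and none fell, but none changed by 2-fold. With library totals the median of all genes moved by -0.72 in WT and -0.68 in KO cells, further than either of these medians lay from 0. Of 13 subunits of RNA polymerase II 4 rose and 3 fell in WT cells, and *Polr2a*, which encodes the largest subunit as *Polr1a* does for polymerase I, went from 5217 ± 364 to 2087 ± 40 (-1.319 ± 0.06; limma adjusted p = 6.64e-08). Of 11 subunits specific to RNA polymerase III 2 rose and 5 fell, with *Polr3c* at 1.81 and *Polr3g* at -1.59. Of 20 proliferation genes 17 fell in WT cells, 13 of them by 2-fold, with a median of -1.21, and 16 fell and 1 rose in KO cells with a median of -1.29. The summed proliferation genes had 27188 to 34811 normalised counts in untreated and 21206 to 26555 in LPS-treated WT libraries, with 31165 to 34669.6 and 24298.5 to 27367 in the KO ones, and their part in the falls of the members was not tested. *Myc*, which encodes a transcription factor known to drive ribosome production, went from 456 ± 49 to 58.7 ± 10.6 in WT cells (-2.95 ± 0.16, limma adjusted p = 1.60e-07) and from 461 ± 38.9 to 106 ± 11.5 in KO cells (-2.11 ± 0.12, limma adjusted p = 5.24e-07). Between LPS-treated KO and WT cells *Myc* differed by 0.85 ± 0.19 (SE; limma adjusted p = 0.0861), short of the threshold.

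**Figure D3:**
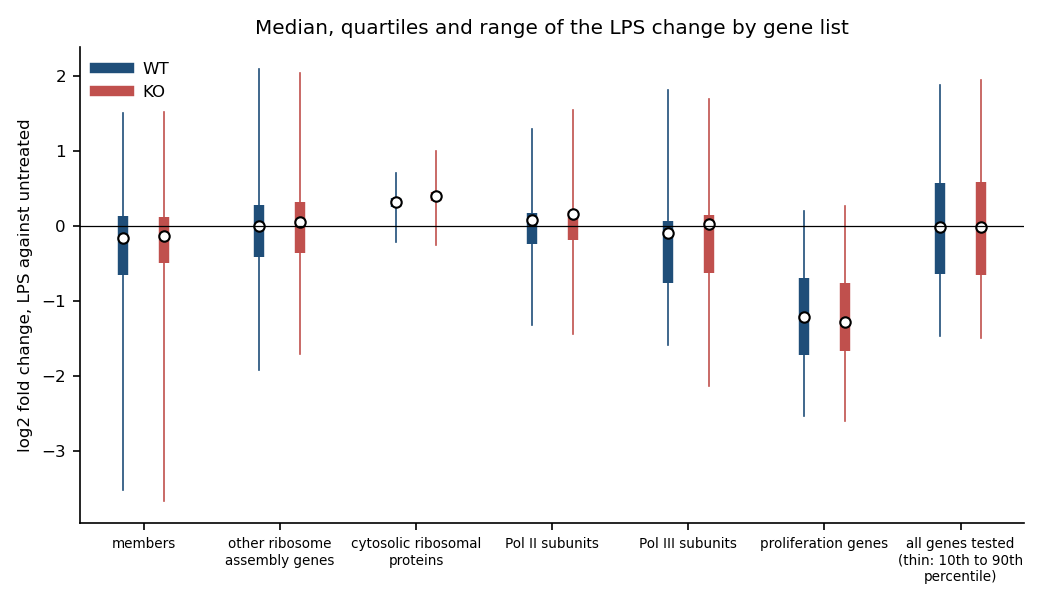
Log2 fold change of normalised count, LPS against untreated (y axis), for 6 gene lists and all genes tested in WT (blue) and KO (red) macrophages, with the median (circle), quartiles (thick line) and range (thin line, for all genes the 10th to 90th percentile). The members have medians of -0.17 and -0.14, the cytosolic ribosomal proteins of 0.31 and 0.39 and the proliferation genes of -1.21 and -1.29.

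Promoter sequence was looked at because some members moved together and *Myc* fell with them. MYC and its partners bind the E-box CACGTG, and many housekeeping genes carry the ETS motif CCGGAAGT. Windows of 300 bases, from 250 before to 50 after the start site, were found for 37 of the 48 members in RefSeq (GRCm38.p6) and searched on both strands. The E-box, a palindrome, was in 8 of the 37 (21.6%), in 8.09% of all genes with a window and in 11.9% of those tested for LPS in WT cells. Of the 8 members 4 fell, 1 rose and 3 did not pass. The ETS motif was in 7 members (18.9%), 4.31% of all genes and 9.6% of tested genes, and 3 of the 7 fell and 2, *Nol10* and *Utp3*, rose. For both motifs these counts stand against 36.6% of all genes that fell and 36.7% that rose in WT cells. Among all 45 tested members 46.7% fell and 20% rose. CCAAT was in 13 members (35.1%, against 41.1% of all genes and 43.0% of tested genes) and TATAAA in 4 (10.8% against 15.7% and 8.74%). Shown are the 250 bases before the start site of members that hold an E-box and fell (*Nop2*, *Utp14b*), rose (*Rrp7a*) or did not pass (*Nol11*) in WT cells, 5′ to 3′ in the direction of transcription, with the E-box in capitals, and of *Utp3*, with its ETS motifs in capitals. The E-box starts 60 bases before the start site in *Nop2*, 63 in *Utp14b*, 208 in *Rrp7a* and 43 in *Nol11*, and the ETS motifs of *Utp3* start 224 and 138 bases before it. The RefSeq start of *Utp14b* lies inside the GENCODE gene model given above, downstream of its first base.
*Nop2* (chr6:125131633-125131882, forward strand): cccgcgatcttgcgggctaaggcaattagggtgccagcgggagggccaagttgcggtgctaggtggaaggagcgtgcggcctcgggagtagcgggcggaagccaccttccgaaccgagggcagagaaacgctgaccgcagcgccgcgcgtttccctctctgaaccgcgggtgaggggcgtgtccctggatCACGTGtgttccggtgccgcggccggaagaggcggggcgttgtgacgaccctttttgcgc
*Utp14b* (chr1:78658190-78658439, forward strand): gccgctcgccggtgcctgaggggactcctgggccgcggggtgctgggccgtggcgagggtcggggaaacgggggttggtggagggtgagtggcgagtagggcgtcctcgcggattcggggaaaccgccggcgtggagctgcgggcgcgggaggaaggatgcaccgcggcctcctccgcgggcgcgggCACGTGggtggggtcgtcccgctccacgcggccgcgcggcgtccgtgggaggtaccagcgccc
*Rrp7a* (chr15:83122802-83123051, reverse strand): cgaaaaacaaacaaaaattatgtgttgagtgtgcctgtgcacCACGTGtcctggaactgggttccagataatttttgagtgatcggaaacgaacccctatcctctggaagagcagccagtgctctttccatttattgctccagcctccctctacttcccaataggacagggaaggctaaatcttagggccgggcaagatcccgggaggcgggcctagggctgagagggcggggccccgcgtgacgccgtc
*Nol11* (chr11:107189382-107189631, reverse strand): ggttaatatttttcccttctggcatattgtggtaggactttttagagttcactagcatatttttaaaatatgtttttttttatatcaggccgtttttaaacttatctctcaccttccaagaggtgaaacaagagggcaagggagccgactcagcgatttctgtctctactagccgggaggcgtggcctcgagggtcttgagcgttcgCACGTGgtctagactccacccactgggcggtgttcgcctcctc
*Utp3* (chr5:88554212-88554461, forward strand): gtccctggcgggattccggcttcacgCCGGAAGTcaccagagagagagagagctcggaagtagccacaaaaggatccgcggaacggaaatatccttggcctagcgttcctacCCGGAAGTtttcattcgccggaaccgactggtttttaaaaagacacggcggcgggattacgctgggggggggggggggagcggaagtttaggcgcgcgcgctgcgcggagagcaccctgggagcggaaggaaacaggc
The E-box stood before members that fell, rose and did not pass, and the part of the E-box or of *Myc* in these changes was not tested.

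Between the genotypes, very few members differed. In untreated macrophages *Utp14b* was the only member that passed, and it was higher in KO cells, as 1 of 45 members. Of all 12461 genes tested 0.538% passed at an adjusted p under 0.05, 0.257% higher and 0.281% lower in KO cells. With a 2-fold change required, no member passed (limma; 5 with an unadjusted p under 0.05; DESeq2 and edgeR also 0), against 0.193% of all genes. The values were 307, 305 and 238 normalised counts in WT and 516, 557 and 517 in KO libraries. All KO values lay above all WT values, and the log2 fold change was 0.91 ± 0.11 (SE; limma adjusted p = 0.0162), which is below 2-fold. Without replicate 2 of the untreated WT cells the adjusted p was 0.0707, without replicate 3 of the untreated KO cells 0.0723, with all 12 libraries in one fit 0.377 and with a variance without a trend 0.0948, and it ranged from 5.86e-11 to 0.377 over the alternatives. *Acsl3*, within which it lies, had 1153 to 1283 normalised counts in WT and 1298 to 1497 in KO cells, a difference of 0.18 ± 0.07 (limma adjusted p = 0.398). After LPS *Utp14b* was measured at 18.3, 24.6 and 29.2 in WT and 20.6, 45.8 and 70.8 in KO libraries, with overlap and a log2 fold change of 0.76 ± 0.41 (SE; limma adjusted p = 0.57). All KO libraries lay above all WT libraries for 3 members and below them for 7 in untreated cells, against 8.41% and 7.98% of all genes. The 5 members with an unadjusted p under 0.05 were *Utp14b*, *Polr1a* (-0.20), *Utp14a* (-0.20), *Nop16* (-0.24) and *Nop2* (-0.20), of which the last is named here after its value was seen. Apart from *Utp14b* they had limma adjusted p of 0.251 to 0.399 and so did not pass. The share of all genes at the unadjusted threshold is not given here. The median of the members was -0.07 in untreated and 0.02 in LPS-treated cells.

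In LPS-treated macrophages *Utp3* was the only member that passed, and it was again higher in KO cells, where 0.504% of all 12504 genes were higher, 0.312% were lower and 0.816% passed. By 2-fold no member passed (limma; 1 with an unadjusted p under 0.05; DESeq2 and edgeR also 0), against 0.168% of all genes higher and 0.064% lower. It was measured at 1939, 1998 and 2123 normalised counts in WT and 2902, 2478 and 2764 in KO libraries. The KO values all lay above the WT values, and the log2 fold change was 0.42 ± 0.08 (SE; limma adjusted p = 0.0335), or 1.34-fold. The adjusted p was 0.219 with a variance without a trend and 0.0507 with upper quartile scaling. It was 0.172 and 0.169 without replicates 1 and 2 of the LPS-treated WT cells and 0.0517 and 0.173 without replicates 1 and 3 of the KO cells, and over all alternatives it lay between 3.13e-04 and 0.219. In untreated cells *Utp3* had 1053, 1063 and 1108 normalised counts in WT and 1076, 997 and 1000.3 in KO libraries, which overlapped, with a difference of -0.07 ± 0.06 (SE; limma adjusted p = 0.73). *Utp3* and *Rasgef1b* both lie on chromosome 5, as do the members *Nop14* and *Polr1d*. On it *Nop14* starts at base 34638536, *Utp3* at 88554462 and *Polr1d* at 147077050, so that these members lie far from each other. Their distances to *Rasgef1b* are not given here. *Nop14* and *Polr1d* did not pass between the genotypes in LPS-treated cells (-0.13 and 0.02) or in untreated cells (-0.10 and -0.07). A part of the position in the difference of *Utp3* was not tested. After LPS, 1 member had all KO libraries above and 2 had all below the WT libraries, against 8.35% and 7.73% of all genes. No gene of the other pathway lists passed between the genotypes in either condition.

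**Figure D4:**
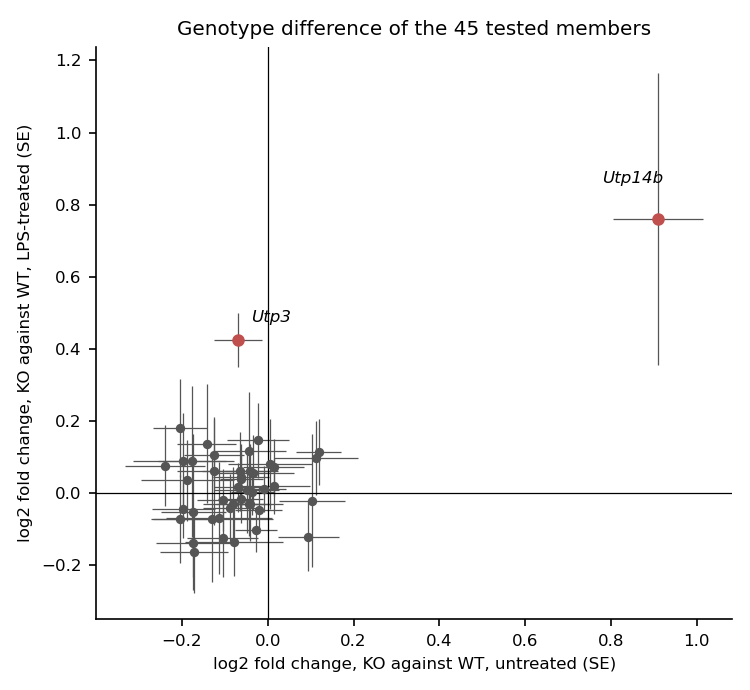
Log2 fold change of normalised count, KO against WT, in untreated (x axis) and LPS-treated (y axis) macrophages for the 45 tested members, with SE bars. *Utp14b* (0.91 untreated, 0.76 with LPS) and *Utp3* (-0.07 untreated, 0.42 with LPS), in red, stand apart from the other members.

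Whether LPS acted differently in KO cells was tested by the interaction of genotype and LPS over all 12 libraries. No member passed (limma; 3 of 45 with an unadjusted p under 0.05), and 1 of 12711 genes did (0.00787%). *Utp3* came nearest. It changed 1.88-fold with LPS in WT and 2.64-fold in KO cells, and the difference of the log2 changes was 0.49 ± 0.09 (SE; limma adjusted p = 0.244). DESeq2 called *Utp3* alone, with the same 0.49 and an adjusted p of 0.0028, and the quasi-likelihood test of edgeR called no member. The next smallest p were those of *Utp14a* (0.39 ± 0.16, limma adjusted p = 0.999) and *Nop16* (0.31 ± 0.14, limma adjusted p = 0.999), both of which fell less in KO cells. Of the 18 members that fell in both genotypes, 15 had a change nearer to 0 in KO cells, and the median interaction was 0.06 for the members and 0.01 for all genes. The count of 15 among 18 was not tested, and the matching share over all genes that fell in both genotypes is not given here.

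The level of the members as a group could only be given relative to a scale and to a set of genes. The member median minus that of all genes was -0.15 in WT and -0.13 in KO cells with the authors' size factors, -0.14 and -0.12 with library totals, -0.15 and -0.13 with upper quartile scaling, -0.15 and -0.13 with trimmed means (TMM), and -0.18 and -0.08 with quantile normalization. Without the filter on low values it was -0.0456 in WT and 0.00543 in KO cells, over 27377 and 29097 genes with medians of -0.12 and -0.15. Of the 30 members that passed in WT cells, all 30 stayed on the same side of the median of all genes with library totals, upper quartile and TMM scaling, and 28 with quantile normalization, where *Nop53* and *Rrp1* changed sides. Of the 29 in KO cells, 29 did so under the first 3 scalings and 25 with quantile normalization.

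**Figure D5:**
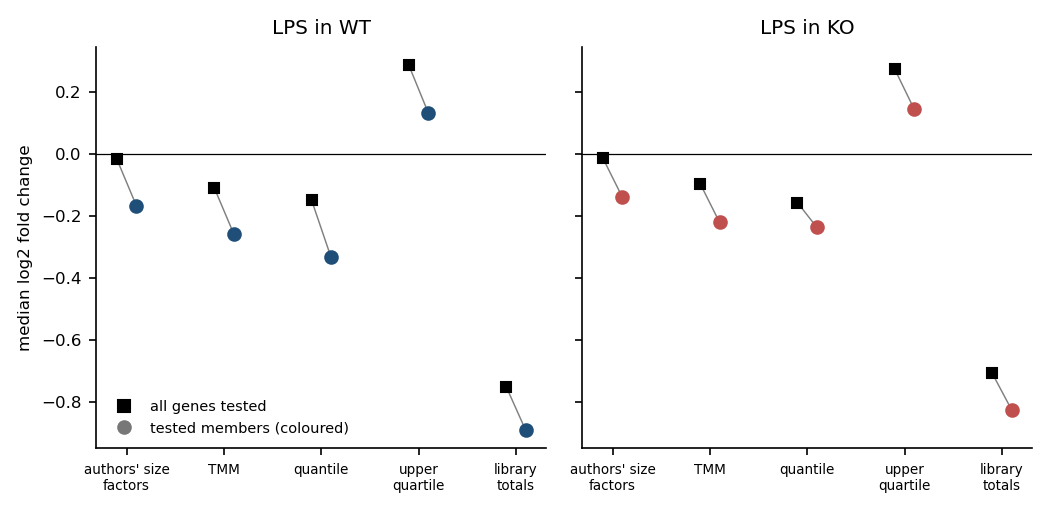
Median log2 fold change with LPS (y axis) of all genes tested (squares) and of the tested members (circles) in WT and KO macrophages under 5 scalings of the libraries. The medians move together from 0.29 and 0.13 with upper quartile scaling to -0.75 and -0.89 with library totals in WT cells, and the members stay below all genes throughout.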

How the data were processed

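RNA was sequenced from BMDMs of 4 groups with 3 libraries each. Per the labels and the study's methods, the authors used bcl2fastq 2.17 for demultiplexing, Trimmomatic 0.39 for trimming, STAR 2.7.4a for alignment (mouse build GRCm38) and featureCounts (Subread 2.0.1) for gene-level counting. The deposited values are a signal made by the authors, who divided each gene's read counts by one size factor per library with DESeq2 1.32.0 in R 4.1.2. Every value was a whole multiple of the worth of 1 read in its library (100.0% within 1e-06 reads), so whole reads and depth (19316691 to 24977356 reads in genes) were recovered. The worth of 1 read was 0.660 to 0.855 normalised counts in untreated and 1.21 to 1.41 in LPS-treated libraries, which limits the precision of genes with few reads.

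From these values, log2(normalised count + 1) was fitted with limma 3.58.1 (variance trend, R 4.3.3) and genes whose mean in the compared libraries was under 10 were left out. A fold change on this scale understates the change of low genes. P-values were adjusted by the Benjamini-Hochberg method over all genes tested, and the thresholds were an adjusted p of 0.05, alone and with a 2-fold change as in the study. Other tools (edgeR 4.0.16 and DESeq2 1.42.0 on the recovered reads), scalings, filters and pseudocounts (0.5 and 5) and the omission of each library were alternatives. Scripts were tested on simulated data.

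The members, roles and gene lists were chosen with earlier results of these data known. Genes named with values were the polymerase subunits, *Ubtf*, *Fbl*, *Nop56*, *Nop58*, *Dkc1*, *Nop10*, *Ncl* and *Npm1*, up to 4 members per role and 5 per direction with the largest LPS change in WT cells, members that passed between genotypes or had 1 of the 3 smallest interaction p, the members with few reads, *Myc* and up to 3 genes per other list. Libraries of the same number deviated together between untreated and LPS-treated cells of one genotype (across genes, WT pairs had r = 0.331, 0.186 and 0.24, while KO pairs had 0.292, 0.278 and 0.167). Between genotypes, pairs of the same number had r = -0.0282, -0.0381 and 0.241 in untreated cells. In LPS-treated cells they had -0.197, -0.0358 and 0.0556, so these pairs shared no common direction. A fit with the replicate number as a block was an alternative. The study's methods describe the comparisons as unpaired, between BMDM samples of mice, and the fits without pairing are the ones reported. The labels do not tie libraries to mice, so p-values measure the spread between these samples. Coordinates are of GRCm38 (GENCODE M21).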

Additional observations from a re-analysis of the deposited data

How the results depend on the processing

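The counts of members past 2-fold and the medians moved most with the scaling. In WT cells library totals gave 0 higher and 21 lower with a median of -0.89, upper quartile scaling 3, 4 and 0.13, TMM a median of -0.26 and quantile normalization one of -0.33. In KO cells library totals gave 0 and 16 with -0.82, upper quartile scaling a median of 0.14, TMM -0.22 and quantile normalization 1 higher with -0.24. Without the fold threshold the counts were 9 and 21 in WT, 9 and 20 in KO and 1 in each genotype comparison, and quantile normalization gave 1 between untreated genotypes. DESeq2 called 1 member for the interaction. Over omissions of 1 library the WT median was -0.22 to -0.14 and the WT count lower 4 to 10 (4 without replicate 3 of the LPS-treated WT cells), and the KO median was -0.18 to -0.11 and the KO count lower 4 to 5. When replicate number entered the fit as a block (the pairing within a genotype), 10 members rose and 22 fell in WT and 9 and 21 in KO cells. The 2-fold counts stayed at 1 and 7 and at 2 and 5. Between the genotypes the same block joined WT and KO libraries that share no more than a number. The adjusted p it gave there (limma, *Utp14b* 0.00449 and *Utp3* 0.0446) is therefore no check of those calls. Of 1220 alternative values for 61 results of single members, 1129 kept direction and side of the threshold, 71 lost the call and 20 turned sign. With library totals these were, in WT, *Utp11* (-0.0868), *Nop53* (-0.37), *Rrp1* (-0.57), *Rrp9* (-0.33), *Nol7* (-0.33) and *Utp23* (-0.305), and in KO, *Nop10* (-0.23), *Utp11* (-0.000703), *Nop53* (-0.34), *Rrp9* (-0.35), *Nol7* (-0.19) and *Utp23* (-0.14). With quantile normalization they were *Nop53* (-0.20) and *Rrp1* (-0.58) in WT and *Nop53* (-0.24) in KO. With upper quartile scaling they were *Nol6* (0.0157) and *Nop9* (0.0477) in WT and *Nol6* (0.0142), *Utp15* (0.0274) and *Nol12* (0.032) in KO. The cause was not tested.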

Other observations

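Genes of the MYC network encode MYC relatives, partners and antagonists that bind the E-box. Of 10 tested, 3 rose (30%) and 5 fell (50%) with LPS in WT cells, against 36.7% and 36.6% of all genes. *Mycl*, which encodes L-MYC, went from 1.17 ± 0.322 normalised counts (mean and SD, n = 3) to 335 ± 37.7 in WT and from 0.994 ± 0.368 to 703 ± 86.7 in KO cells, and the LPS-treated genotypes differed by 1.07 ± 0.12 (SE; limma adjusted p = 0.00552). The untreated levels are near 1 read per library. The partner *Max* (1.93) and the antagonist *Mxd1* (4.23) rose in WT cells, whereas the antagonists *Mnt* (-3.34), *Mxd4* (-2.94), *Mxd3* (-2.31) and *Mxi1* (-1.65) fell, all on the log2 scale. For *Myc* itself the interaction of genotype and LPS was 0.84 ± 0.20 (SE; limma adjusted p = 0.543), and for *Mycl* it was 1.19 ± 0.30 (SE; limma adjusted p = 0.648). Genes of this list beyond *Myc* and 3 others were named after their values were seen.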
